A study of Homo sapiens with 2 samples.

Results

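The genes described here encode subunits of the NuRD complex: CHD4, HDAC1, HDAC2, MTA1, MTA2, MTA3, MBD2, MBD3, RBBP4 and GATAD2A. These 10 genes were chosen by name, and each was placed at a given hg19 position written to 10 kb. MTA3 and GATAD2A were given as spans, and the other 8 as single points. Around each gene a window of 500 kb on either side was read for its compartment score, contact domains and loops. The windows of HDAC1 and RBBP4 overlapped, so the 10 windows formed 9 separate regions covering 9.66 Mb. They held 17 of the 3845 listed contact domains and 7 of the 1507 listed loops. The map came from in situ Hi-C, which records by ligation and sequencing which pieces of DNA were near each other in fixed nuclei. It was made on 2 libraries of 1 group of HEK293T cells, a human embryonic kidney line carrying the SV40 large T antigen. The cells carried no depletion or drug and were treated only with formaldehyde for crosslinking. Every value below comes from tables of the whole series, with no column for either library, so no replicate error can be given and no test between groups was possible. The labels do not say whether the libraries came from separate cultures.

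NuRD couples nucleosome remodelling to histone deacetylation. CHD4 is its ATPase, HDAC1 and HDAC2 are its deacetylases, and the MTA proteins are the scaffold that binds the deacetylases and the histone chaperone RBBP4. MBD2 and MBD3 are alternative subunits, and MBD2 binds methylated DNA. GATAD2A connects the MBD subunit to CHD4. The study to which this map belongs concerns NuRD at sites of the insulator protein CTCF, which together with cohesin is known to mark many domain boundaries and loop anchors. The map describes where the genes of the complex lie, not where the complex binds.

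The NuRD genes did not share one kind of chromatin neighbourhood in this map. HDAC1 and RBBP4 were the only members at a position covered by a listed domain, and RBBP4 lay on the domain's end. The given positions of CHD4, HDAC2 and MTA2 and the span of MTA3 lay in gaps between listed domains. MBD2, MTA1, MBD3 and GATAD2A lay in long stretches without one. A loop anchor fell in the windows of CHD4, MTA2 and MTA3, and no loop was listed in the other 7. Positions taken every 10 kb over the scored bins were mixed as well. Of these, 41.7% were inside a domain, 25.3% had no domain within 500 kb and 42.6% had a loop anchor within 500 kb.

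**Figure D1:**
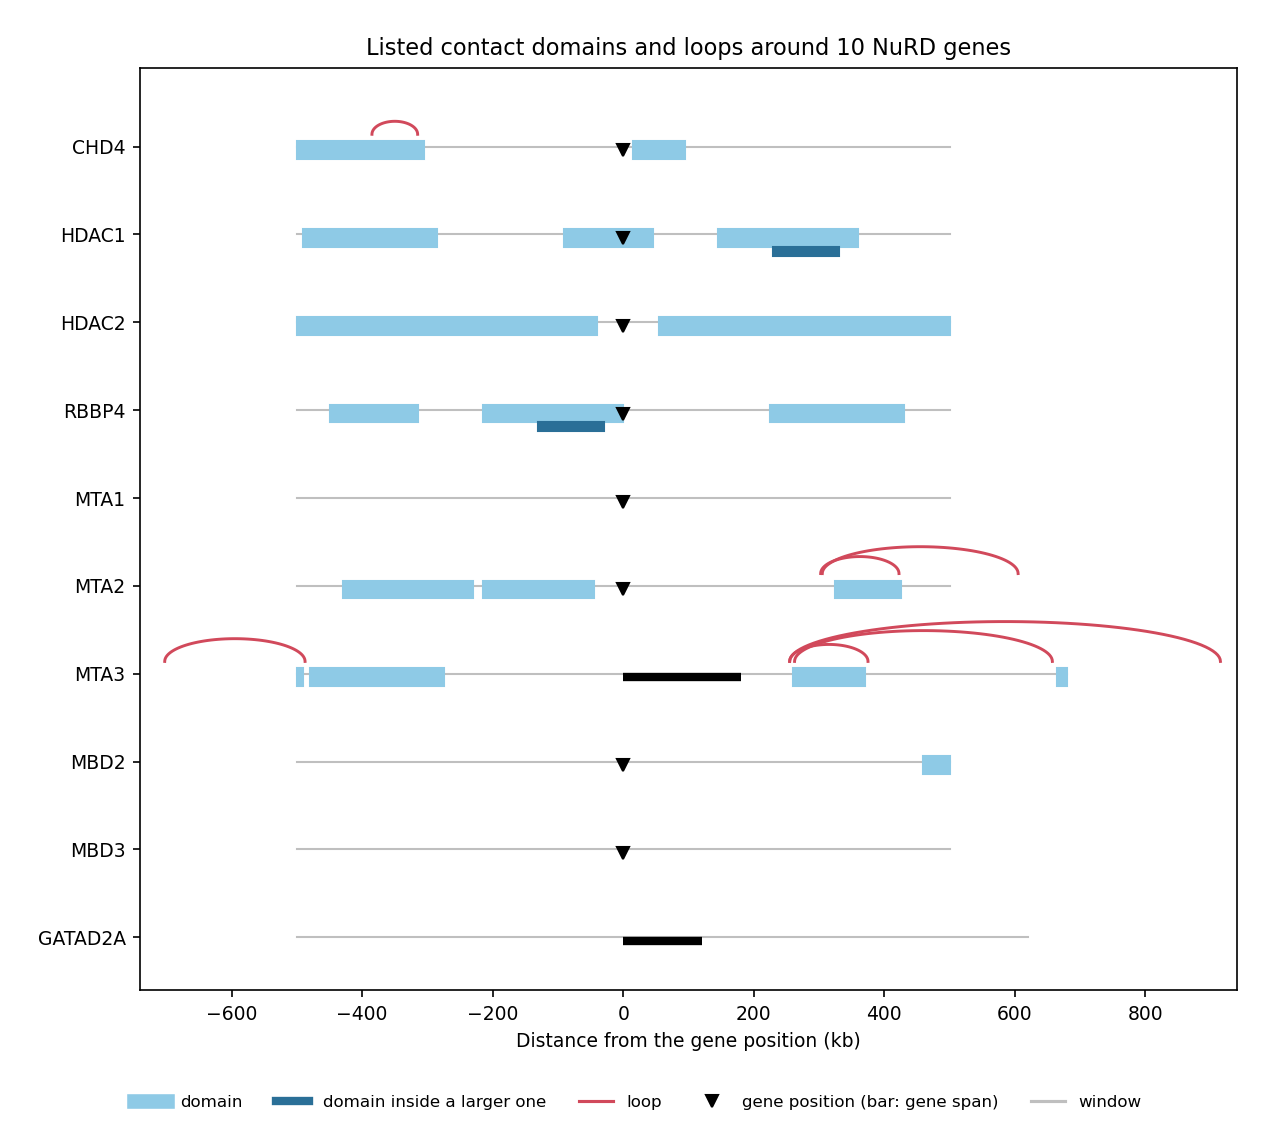
Listed contact domains (blue bars), loops (red arcs) and gene positions (black) for 10 NuRD genes, on an axis of distance from the gene position in kb. Domains are drawn only inside the window of 500 kb either side (grey line), and arcs are drawn whole. The tracks of MTA1, MBD3 and GATAD2A hold neither domain nor loop, and the bars of HDAC2 are parts of domains of 1165 and 1930 kb.

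Compartment scores split the members. The table gives 1 score for each 1 Mb bin, scaled within a chromosome, and the sources used here do not give which sign marks the gene-rich A compartment. Scores on chromosomes 11 and 14 were not used, which leaves out MTA2 and MTA1. Of the 8 members with a score, 5 lay in positive bins (CHD4, HDAC1, RBBP4, MTA3 and MBD3) and 3 in negative bins (HDAC2, MBD2 and GATAD2A). On the same 6 chromosomes 43.5% of signed bins were positive, and on all chromosomes 48.9%. HDAC1 and RBBP4 lay in neighbouring bins of the same run, so they are not separate observations. The count pools signs over 6 chromosomes, and with the convention unknown a positive sign may not mean the same on each. The backgrounds of positive bins below pool signs in the same way. With 8 members, the count is given as a description only.

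Within its own chromosome, the bin of CHD4 (6 to 7 Mb of chromosome 12) had a score of 0.119 and ranked 15 from the top of 132 scored bins. The bin of HDAC1 (32 to 33 Mb of chromosome 1) scored 0.0703 and ranked 35 of 230. RBBP4, in the next bin, scored 0.0524 and ranked 52. Both belong to 1 positive run from 6 to 48 Mb, the longest run around any member. MBD3 scored 0.163 in the bin from 1 to 2 Mb of chromosome 19 and ranked 9 of 58. MTA3 had the positive score nearest to 0 (0.0207, rank 63 of 242 on chromosome 2), in the first bin of a positive run from 42 to 48 Mb whose left neighbour scored -0.0615. CHD4 and MBD3 were also in the first bin of their positive run, with left neighbours of -0.00766 and -0.0471. For CHD4 the negative neighbour was a lone bin close to zero, and the bin before it scored 0.0765. For MBD3 the negative neighbour was the first bin of the chromosome. HDAC1 and RBBP4 lay inside a run. The share of all positive bins that start a run was not counted, so these placements are description only.

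HDAC2 scored -0.0377 in the bin from 114 to 115 Mb of chromosome 6, where 39.6% of the scored bins were lower. Its negative run was 3 Mb long, from 113 to 116 Mb, and was ended by a bin with a score of 0.00187. The bins from 117 to 125 Mb were negative again. MBD2 scored -0.125 in a negative run from 49 to 54 Mb of chromosome 18, with 23.4% of bins lower. GATAD2A scored -0.143 in the bin from 19 to 20 Mb of chromosome 19, with 25.9% of bins lower. That bin was the first of a negative run reaching to 25 Mb, where bins without a score follow, and the bin before it scored 0.152. GATAD2A lies in the middle of its bin, so a change of sign anywhere inside that megabase cannot be placed relative to the gene. As deposited, HDAC1 was positive and HDAC2 negative, and MBD3 was positive and MBD2 negative. Each pair lies on different chromosomes, where neither the size nor, with the convention unknown, the sign can be set directly against the other. On all 4 of these chromosomes, listed domains were denser in positive than in negative bins: 2.51 against 1.23 per Mb on chromosome 1, 2.67 against 0.989 on chromosome 6, 1.51 against 0.361 on chromosome 18 and 1.30 against 0.800 on chromosome 19. All 8 signs stayed the same when the score was averaged with that of both neighbouring bins.

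**Figure D2:**
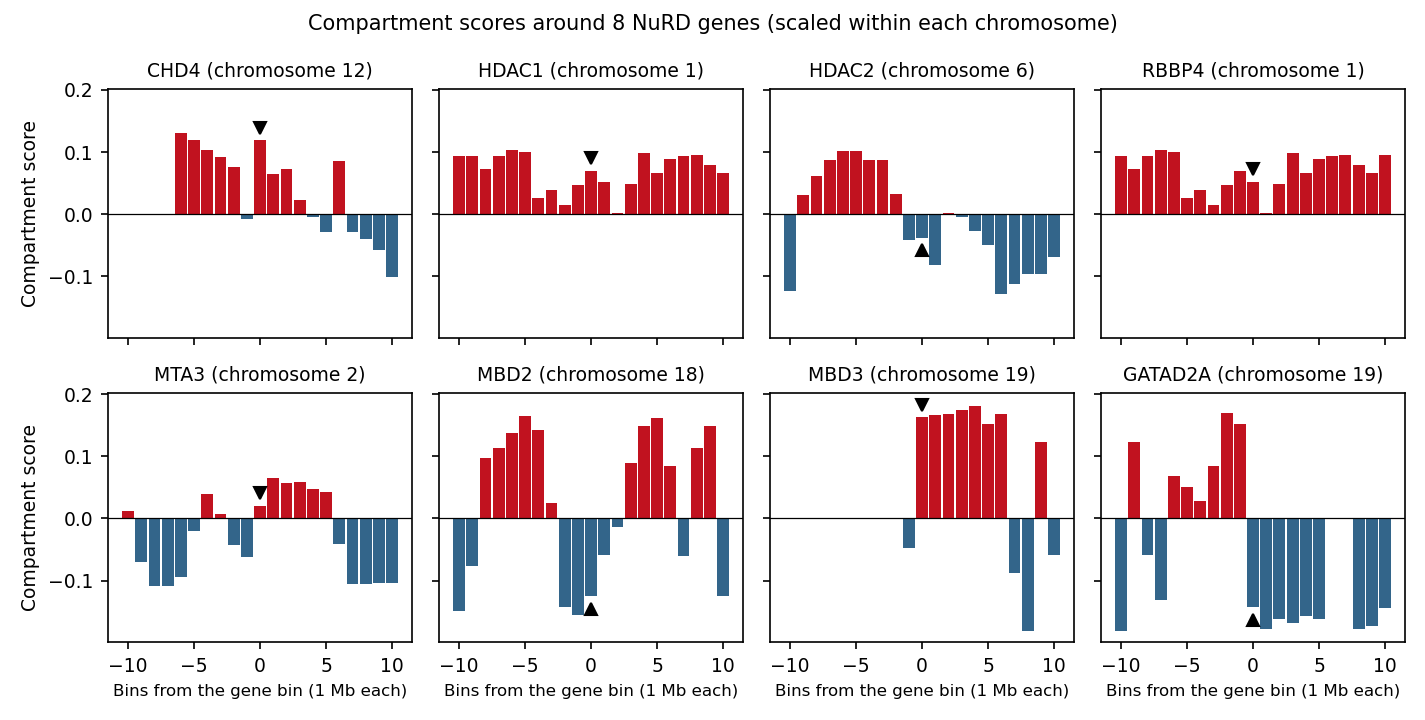
Compartment score (vertical axis, scaled within each chromosome) for up to 10 bins of 1 Mb on either side of the bin of each of 8 NuRD genes, with triangles at the gene's own bin. Positive bins are red and negative bins blue, and bins that are absent have no score or lie past the chromosome end. HDAC1 and RBBP4 sit in an unbroken positive run, while CHD4, MTA3, MBD3 and GATAD2A sit in the first bin after a change of sign.

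By their given positions, most members lay outside the listed contact domains. A contact domain is a stretch whose parts contact each other more often than they contact the flanking sequence, and the authors' table gives each one a caller score. Of the 10 members, 2 (20%) were inside a listed domain, against 41.7% of all positions taken every 10 kb over the scored bins. These 2, HDAC1 and RBBP4, were both among the 5 members in positive bins. Of positions in positive bins outside chromosomes 11 and 14, 46.7% were inside a domain. These backgrounds count all positions, not genes. The nearest domain end was close for several of the genes: 5 of 10 had an end at most 50 kb away, against 22.3% of all positions. HDAC1 and RBBP4, both among the 5, share 1 region. CHD4, HDAC1, RBBP4 and HDAC2 lie on chromosomes 1, 6 and 12. There the lower quartile of the distance over positions was 45 kb, against 60 kb on all chromosomes. The median distance to the nearest end was 62.5 kb for the members and 180 kb for all positions. This order rests on domains of below-median score: when only domains above the median score were kept, no member was inside one (background 19.2%), and the median distance was 815 kb against 485 kb for all positions.

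The distances ran from 0 kb for RBBP4 through 15 kb for CHD4, 40 kb for HDAC2 and 45 kb for both HDAC1 and MTA2 to 80 kb for MTA3. They were 460 kb for MBD2, 985 kb for MTA1, 1515 kb for GATAD2A and 3130 kb for MBD3. Positions are given to 10 kb, so HDAC2, HDAC1 and MTA2 cannot be ordered, and each point stands for a gene that extends further. On their own chromosomes, 1.79% of all positions were as close to an end as RBBP4 and 10.8% as close as CHD4. The share for RBBP4 rests on a distance of 0 kb from a position rounded to 10 kb. For MTA2, HDAC2, HDAC1 and MTA3 the shares were 22.2%, 23.3%, 27.3% and 28.2%. At the other extreme, 90.0% of positions on chromosome 19 were at least as close as MBD3 and 79.0% as close as GATAD2A.

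**Figure D3:**
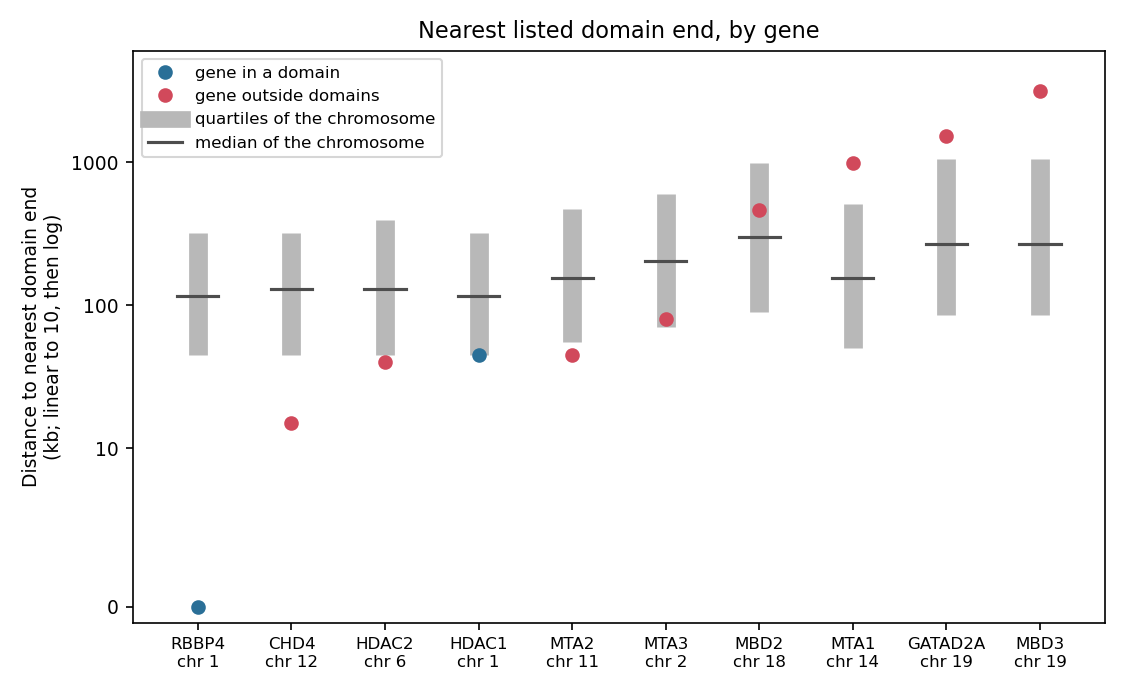
Distance in kb from each NuRD gene to the nearest listed domain end (points; the axis is linear to 10 kb and logarithmic above), with the quartiles (grey bar) and median (line) over all positions taken every 10 kb on the same chromosome. RBBP4, CHD4, HDAC2 and MTA2 lie below their chromosome's lower quartile, and MTA1, GATAD2A and MBD3 lie above its upper quartile.

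CHD4, the ATPase, lies between the genes NOP2 and LPAR5 (order in RefSeq, GRCh38.p14). Its given position fell in a gap of 320 kb between listed domains. How far the gene extends from that point on this map is unknown here, so it may reach the next domain. That domain began 15 kb beyond the CHD4 position and was one of the shortest listed, 80 kb (chr12:6715001-6795000), with 1.51% of all domains shorter. Its caller score of 0.931 was also low, with 13.6% of domains lower. On the other side the nearest domain, 230 kb long, ended 305 kb away. Domains covered 27.5% of the CHD4 window.

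HDAC1 and RBBP4, a deacetylase and a histone chaperone of the same complex, are neighbours on chromosome 1. Their positions were 360 kb apart, with 7 protein-coding genes between them in RefSeq, among them MARCKSL1, BSDC1 and ZBTB8A. HDAC1 lay inside a 135 kb domain (chr1:32670001-32805000, score 1.07), 45 kb from its nearer end. A gap of 100 kb separated it from a 215 kb domain (chr1:32905001-33120000, score 1.08), whose end coincided with the position of RBBP4. That larger domain held a smaller one of 100 kb with a score of 0.840. RBBP4 counted as inside when its position was moved down by 5 kb and as outside when it was moved up by 5 kb, so the rounding of its position decides its side of the end. HDAC1 and RBBP4 thus lay in or at separate domains, and no listed domain held both. Both windows shared 3 domains and were 55.5% covered. All 5 domains in these overlapping windows had scores between 0.840 and 1.08, below the median of 1.20 over all domains, and none had a loop at its corner, against 24.8% of all domains. The nearest loop anchor was 1370 kb from HDAC1 and 1730 kb from RBBP4, too far for a corner loop of these domains. A corner loop is one whose anchors lie within 50 kb, or 0.2 of the domain's length if that is more, of both domain ends.

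HDAC2, the second deacetylase, lay in a different setting from its paralogue. It sat in a gap of 95 kb, with a domain ending 40 kb before its position and another starting 55 kb after it. The first was 1165 kb long (chr6:113085001-114250000, score 1.26), and only 97 of the 3845 domains were longer. The other was 1930 kb long (chr6:114345001-116275000), with only 12 longer, and its score of 0.662 was lower than that of most domains (1.79% were lower). Domains above 1 Mb made up 3.88% of the table. That share counts domains and not positions, and longer domains hold more positions. Domains covered 90.5% of the HDAC2 window, the highest share among the members, although the gene's given position was outside them. Its neighbours in RefSeq are MARCKS and HS3ST5. No loop was listed at the corner of either domain, and the nearest loop anchor was 1650 kb away.

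Promoter sequences are shown for RBBP4, which lay on a domain end, and for the deacetylase pair whose domain settings differed. They are the 250 bases before the first listed start of each gene in RefSeq (GRCh38.p14, which is not the build of the map), 5′ to 3′ on the gene's strand. Capitals mark matches on either strand to the GC box GGGCGG and the CCAAT box CCAAT, which are common promoter elements. These are chr1:32650958-32651207 on the plus strand for RBBP4, chr1:32291833-32292082 on the plus strand for HDAC1 and chr6:113971149-113971398 on the minus strand for HDAC2.
RBBP4: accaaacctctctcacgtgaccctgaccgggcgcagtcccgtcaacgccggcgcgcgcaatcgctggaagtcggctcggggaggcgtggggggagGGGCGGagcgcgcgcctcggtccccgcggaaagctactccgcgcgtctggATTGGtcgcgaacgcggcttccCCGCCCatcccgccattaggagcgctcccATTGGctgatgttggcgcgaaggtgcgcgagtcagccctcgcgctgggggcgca
HDAC1: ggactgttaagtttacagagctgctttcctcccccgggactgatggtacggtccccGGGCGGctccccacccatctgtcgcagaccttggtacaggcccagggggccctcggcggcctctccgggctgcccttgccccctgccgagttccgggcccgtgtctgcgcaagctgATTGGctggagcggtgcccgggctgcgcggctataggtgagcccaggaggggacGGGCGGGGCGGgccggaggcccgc
HDAC2: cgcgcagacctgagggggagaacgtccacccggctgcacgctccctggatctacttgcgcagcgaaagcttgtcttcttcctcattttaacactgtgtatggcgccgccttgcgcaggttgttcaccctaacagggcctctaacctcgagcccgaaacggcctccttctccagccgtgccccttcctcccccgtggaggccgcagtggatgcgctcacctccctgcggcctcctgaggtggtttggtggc
RBBP4 had 2 GC boxes and 2 CCAAT boxes, HDAC1 had 3 GC boxes (2 of them overlapping the same G-rich run) and 1 CCAAT box, and HDAC2 had neither. All 10 members matched the promoter table. A GC box was found in 9 of them, all but HDAC2, against 42.6% of all 35116 promoters, and a CCAAT box in 4, against 32.0%. The median GC content was 71.4% for the members and 58% for all promoters, so these shares are not matched for GC content. A match describes the letters of this stretch only, and the start sites could not be placed on the hg19 map relative to the domain ends.

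Of the MTA scaffold genes, MTA2 and MTA3 lay in gaps between domains and MTA1 in a far longer stretch without one. MTA2, between TUT1 and EML3 on chromosome 11, lay in a gap of 370 kb. A 170 kb domain (chr11:62155001-62325000) ended 45 kb before it, and its score of 1.66 exceeded that of 94.2% of all domains. MTA3, between KCNG3 and OXER1 on chromosome 2, lay as a whole in a gap of 535 kb, with a 110 kb domain (chr2:43060001-43170000, score 1.27) starting 80 kb past the end of its span. A domain at the far edge of its window, 240 kb long and ending 490 kb before the gene, had a score of 1.80, above 99.3% of all domains. MTA1, next to CRIP2 on chromosome 14, had no domain in its window. It lay in a domain-free stretch of 4465 kb (102.41 to 106.875 Mb), and only 53 of the 3499 stretches between domains were longer. The median stretch was 95 kb. Longer stretches hold more positions, so a rank among stretches does not give the share of positions in such stretches. On chromosome 14, 83.2% of positions were at least as close to a domain end as MTA1.

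MBD2, MBD3 and GATAD2A also lay in long domain-free stretches, and in these the tables had little to show at 500 kb. MTA1, MBD3 and GATAD2A, 3 of the 10 members, had no domain in the window, against 25.3% of all positions. Only MBD3 of these was among the 5 members in positive bins. Of positions in positive bins outside chromosomes 11 and 14, 15.3% had no domain within 500 kb. MBD2, beside POLI, lay in a stretch of 3885 kb on chromosome 18. On that chromosome 59.4% of positions were at least as close to a domain end as MBD2. The single domain that reached into its window was 115 kb long, began 460 kb past the gene and had a high score of 1.77, above 98.2% of all domains. Chromosome 18 had few domains in all (0.974 per Mb), and, as above, fewer per Mb in negative bins, such as that of MBD2, than in positive ones. MBD3, between MEX3D and UQCR11, lay near the start of chromosome 19, where the first listed domain began at 4.72 Mb, although the score of its own bin was high for the chromosome (rank 9 of 58). GATAD2A, between TSSK6 and MAU2, which encodes a cohesin loading factor, lay in a stretch of 12110 kb (17.985 to 30.095 Mb). Of all stretches between domains 3 were longer, a rank that counts stretches and not positions. That stretch touched 14 bins, of which 2 had no score, 10 were negative and 2 positive. The bins without a score (25 to 27 Mb) count in the length of the stretch. Whether a domain could be called in them is unknown here. Chromosome 19 had 1.00 domain per Mb and ranked 19 of 23 chromosomes. The number of contacts sequenced in each of these regions is unknown here.

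Loops were listed near 3 members. A loop is a pair of anchors that contact each other more often than their surroundings, and its enrichment is the observed contacts over those expected from the surrounding donut of pixels. A loop anchor lay within 500 kb of CHD4, MTA2 and MTA3, or 3 of 10 members, against 42.6% of all positions. CHD4 and MTA3 were among the 5 members in positive bins. Of positions in positive bins outside chromosomes 11 and 14, 53.3% had such an anchor. The mean number of loops per window of this size was 0.718 over all positions, and the 10 members had 7 in all. The median distance to the nearest anchor was 985 kb for the members and 680 kb for all positions on chromosomes with a loop.

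MTA3 had 4 of the 7 loops, and 3 of them started from adjoining anchors 70 to 80 kb past the end of its span. The first joined chr2:43050001-43060000 to chr2:43170001-43180000, 120 kb apart, at the corner of the 110 kb domain. With 75 contacts where 30.6 were expected, it was enriched 2.45-fold (exact Poisson 95% limits 1.93 and 3.08). The next joined the 5 kb anchor chr2:43060001-43065000 to an anchor 395 kb away, with 27 contacts against 6.39 expected (4.23-fold, 2.79 to 6.15). The last of the 3 reached 660 kb from the first anchor, with 50 contacts against 17.5 expected (2.86-fold, 2.12 to 3.77). The far anchors of these longer loops lay on either side of a 245 kb domain (chr2:43465001-43710000), at its near and its far end. The region beyond the end of MTA3 was therefore linked to 3 sites on the same side, and no listed loop crossed the gene. The fourth loop, with 54 contacts (3.23-fold, 2.42 to 4.21), lay at the corner of the 240 kb domain on the other side of the gene and spanned 215 kb.

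MTA2 had 2 loops, both from an anchor 300 kb past its position. One reached 120 kb, across the corner of a 100 kb domain (chr11:62695001-62795000), with 44 contacts against 11.1 expected (3.96-fold, 2.88 to 5.32). The other reached 300 kb, with 50 contacts against 14.9 expected (3.35-fold, 2.49 to 4.42), and no domain had its ends at both anchors. CHD4 had 1 loop, with anchors 390 and 320 kb before its position and 70 kb apart, inside the 230 kb domain. It was the weakest of the 7, with 83 contacts against 41.5 expected (2.00-fold, 1.59 to 2.48), and 0.863% of all loops had a lower enrichment. The intervals of the 7 loops overlapped for most pairs, but that of the CHD4 loop ended below the lower bounds of both MTA2 loops and of the 395 kb MTA3 loop. The intervals cover counting error only, and the loops differ in anchor size (10 kb for CHD4, 5 kb for the 395 kb MTA3 loop).

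**Figure D4:**
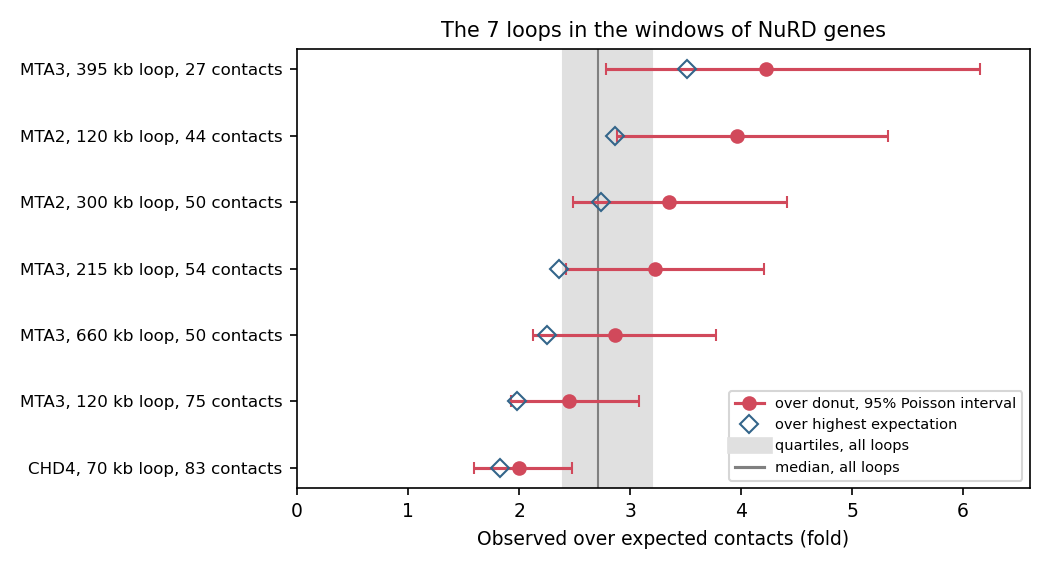
Observed over expected contacts for the 7 loops with an anchor in the window of a NuRD gene, over the donut expectation (red points with exact 95% Poisson intervals) and over the highest of the 4 local expectations (open diamonds), with the median and quartiles of all 1507 loops in grey. The CHD4 loop is lowest at 2.00-fold and the 395 kb MTA3 loop highest at 4.23-fold.

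The median enrichment of the 7 loops was 3.23-fold, against 2.71-fold (quartiles 2.40 and 3.20) for all loops. Those with 5 kb anchors were enriched 3.23-fold to 4.23-fold, and those with 10 kb anchors 2.00-fold to 3.35-fold. The comparison with all loops was not split by anchor size. Of the 7, 3 lay at a domain corner (1 near MTA2 and 2 near MTA3), against 63.6% of all loops. No loop joined the ends of the domains holding HDAC1 and RBBP4. For members without a loop in the window the nearest anchor lay 590 kb away for MTA1, 600 kb for MBD3, 1370 kb for HDAC1, 1730 kb for RBBP4, 3210 kb for GATAD2A and 4445 kb for MBD2. The loop nearest to MBD3 spanned 60 kb with 41 contacts (3.55-fold) in the stretch with no listed domain. HDAC1 and RBBP4 also lay between the anchors of 7 listed loops of 132 to 228 Mb, and MTA2 between those of 2 of 69.7 and 107 Mb. Their anchors were outside the windows. Whether calls this long are chromatin loops was not tested, and they were kept among all loops. With only anchors at most 2 Mb apart, the windows still held 7 loops near 3 members.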

How the data were processed

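In situ Hi-C of 2 HEK293T libraries was analysed from 3 deposited tables that describe both libraries together, with no statement in the sources used here of how they were pooled. The submitters' processing notes name the build hg19 and the tools BWA 0.7.8, FastQC 0.11.7 and Picard, without their roles. The compartment and domain scores are used as deposited, and the sources used here do not name their methods. The deposited loop table, made with HiCCUPS at 5 and 10 kb per the file's name, holds observed counts of contacts per pixel, the expected contacts from 4 neighbourhoods, and an FDR for each. In the authors' deposited table the highest of these q-values was 0.0999. Depth per library is unknown. Over all loops the median was 74 contacts.

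Gene positions were those of the given rule, and no gene table of hg19 was used. A gene was inside a domain if the domain's first to last base held it. Distances were taken to the nearest end or anchor edge. Backgrounds are 288300 positions spaced 10 kb apart in scored bins. Python 3.11.15, pandas 2.3.3 and scipy 1.17.1 were used, and the counting functions were tested on simulated tables. The text names all 10 members. The members, lists and measures were chosen with earlier results of these data known. Alternatives changed the window, the position by 5 kb, the domain score, the FDR and the corner tolerance.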

Additional observations from a re-analysis of the deposited data

How the results depend on the processing

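The count of members in positive bins was 5 when the score was averaged over 3 bins or the position moved by 5 kb, and 6 with all 10 members as deposited. The count inside a domain was 0 with domains above the median score, 1 with positions moved up by 5 kb, and 2 with positions moved down or with any overlap of a span. The median distance to an end was 815 kb with domains above the median score and 67.5 kb with positions moved down. Windows of 250 and 1000 kb gave 1 and 5 members with a loop anchor (backgrounds 29.4% and 58.7%), 3 and 12 loops with median enrichments of 2.86-fold and 3.16-fold, and 10 and 27 domains. Keeping only loops with an FDR of at most 0.01 gave 2 members (background 37.4%), 5 loops and a median of 3.35-fold. Over the highest of the 4 expectations the median was 2.35-fold, against 2.17-fold for all loops. Among the 17 domains in the windows, 5 scored above the median. The number of members with no domain in the window was 6 with those domains alone (background 49.3%), and 4 and 2 with windows of 250 and 1000 kb (backgrounds 34.7% and 15.2%), choices added after the data were seen. No domain holding a member had a corner loop under any tolerance tried. The tolerances could not change this, because the nearest loop anchor was 1370 kb from HDAC1 and 1730 kb from RBBP4.

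No paired analysis was possible because the tables have no column for either library, so leaving out a library was not run either. Contacts per region are unknown, and a window without domains or loops is one where none is listed.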
